A study of Homo sapiens with 2 samples.

Results

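The single guide RNAs (sgRNAs) described here had 0 reads in the unsorted library and at least 1 read in the sorted library of a pooled CRISPR/Cas9 knockout screen. They were selected on these 2 counts, and 230 of 74336 listed sgRNAs met the rule after repeated entries were dropped. Both libraries came from the same transduced culture of A673/EWSR1::FLI1tdTomato/EGFP/Cas9, a Ewing sarcoma line that carries tdTomato at the fusion gene, a separate EGFP reporter and Cas9 in all cells, and that was grown from 1 knock-in clone. The culture received the genome-wide Brunello pool at a multiplicity of infection of 0.3, was held in 2 µg/ml puromycin for 12 days and then recovered for 3 days without the drug. Genomic DNA of the whole culture gave the unsorted library of 10483144 reads, and DNA of the cells in the tdTomato-low EGFP-high gate (about 7% of cells), which were grown further after sorting, gave the sorted library of 1455322 reads. The gate was set to capture cells in which the knockout lowered the fusion gene. A673 cells keep growing in a dish when the fusion is lost.

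In a pooled screen each cell usually integrates 1 sgRNA cassette, so the reads of an sgRNA stand in for the number of cells that carry it. An sgRNA that goes from few cells to many during sorting and regrowth gains share, and one against a gene that cells need to divide is lost while the culture grows. An sgRNA without reads in the starting library has no measured starting level, and its ratio has no finite value. With 1 library a group there was no replicate check, and every test below compares these 2 libraries and not the conditions. The reads came from PCR without molecular identifiers, so the error of the counts alone is covered by each interval and floor given.

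Of the 15 members with the most sorted reads, 12 are shown first because they carry the largest gaps between the libraries. Each sequence is the sgRNA from 5′ to 3′ as listed in the count table, and capitals mark the 10 bases next to the PAM, the stretch in which Cas9 tolerates mismatches least.
DGKA: gattgacaaaGACGAGAAGT
LY6G6D: cgaatgcggtGCTACAACTG
LTV1: tcaggatcaaAATCCAGTCG
DEFB118: tggggtaggaGCACAAGCAT
POLK: tgtaggatcaATGAGTATGC
ADA: cacagactggTCCCCCAAGG
TEX19: tgagctgatgGAGCACACTG
KRT75: cgaggtcaaaGCACAATACG
RPRM: gtgcgtgctcTCACTCACCG
SPTBN4: ggagcagtacTACTTCGACG
DHX58: gttgaccaatACAACCACCT
EXOSC10: aggctggctgACCTTAACGA

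A second set is shown because its members are nearly identical to another listed sgRNA. In each pair the member comes first and its nearest listed sgRNA second, and capitals mark the bases that differ.
RAP2B: ggttgacgaggctgtagacC
RAP2A: ggttgacgaggctgtagacG
SSX3: cagagaagatAcaaaaggtg
SSX7: cagagaagatCcaaaaggtg
OR8B3: atagcgatcataTgccattg
OR8H3: atagcgatcataGgccattg
CSHL1: ggaagaaGcctatatcAcaa
CSH1: ggaagaaAcctatatcCcaa
HIST1H2BM: acacAgaGtagctctccttg
HIST1H2BD: acacTgaAtagctctccttg
PCDHGA6: cgcgggtaggatagacCgCg
PCDHGA4: cgcgggtaggatagacAgGg
OR5K2: caAacTaaTattccccacca
OR5K4: caGacCaaGattccccacca
RPL9: cctggataacaAcGTtgatg
AIM2: cctggataacaTcACtgatg

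The 230 members belonged to 229 genes and together held 7521 sorted reads, 0.517% of the sorted library. Their sorted counts ran from 1 to 131 with a median of 30.5 and quartiles of 11.25 and 48. Most members had more than a few reads, as 198 (86.1%) had more than 3 sorted reads and 119 had at least 30. For the 31284 other sgRNAs present in the sorted library, the median was 40 sorted reads (quartiles 22 and 61) and reached 1318. Members were found more often at the low end, with 32 (13.9%) at 1 to 3 sorted reads against 6.73% of the other sgRNAs, and less often at the high end, with 32 (13.9%) over 60 sorted reads against 25.8%. These shares describe sgRNAs that the rule chose on their counts, and they were not tested.

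DGKA, a diacylglycerol kinase, had the member with the most sorted reads, 131 against 0 unsorted reads. At equal library shares, 131 sorted reads would go with 944 unsorted reads. A count of 0 allows up to 3 unsorted reads, and against this floor the DGKA sgRNA was at least 315-fold higher in the sorted library. Such a bound leaves out the counting error of the sorted reads, and it describes an sgRNA that was chosen on these same counts. Among all sgRNAs with sorted reads, the DGKA count lay at the 97.3rd percentile, so other sgRNAs exceeded it.

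The other members shown at the top covered secreted, surface, metabolic and RNA-processing genes. LY6G6D, a surface protein of the Ly6 family, had a member with 100 sorted reads, at least 240-fold above the floor. LTV1, an assembly factor of the small ribosomal subunit, had 95 sorted reads, at least 228-fold. The β-defensin DEFB118 had 92 sorted reads, the translesion DNA polymerase POLK 89, and adenosine deaminase, ADA, 81. TEX19, a germline gene, had 80 sorted reads and the hair follicle keratin KRT75 had 78. RPRM, an inhibitor of cell cycle progression, and the β-spectrin SPTBN4 had 76 each. The RNA helicase DHX58 of antiviral sensing had 74, and EXOSC10, a nuclease of the nuclear RNA exosome, had 72. Against the same floor, the bounds for the 15 members ran from at least 173-fold for EXOSC10 to at least 315-fold for DGKA. At the other end, 19 members had 1 sorted read, 5 had 2 and 8 had 3, and no fold is given for these. By alphabet the first 5 of the 1-read members were in AMBN, COPB1, CSHL1, CTAGE4 and CTC1.

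Near-identity to another sgRNA separated a small group of members from the rest. For every listed sgRNA the closest other listed sgRNA was found on either strand, counted in mismatches over the 20 bases. Of the members, 18 had such a neighbour within 3 mismatches, and all 18 had between 1 and 3 sorted reads, 27 reads in total. None of the 198 members with more than 3 sorted reads had a neighbour within 3 mismatches. The remaining 14 members with 1 to 3 sorted reads had no neighbour within 3 mismatches. Low sorted counts were not particular to the near-identical members. Other sgRNAs with a neighbour within 3 mismatches were low too where they had sorted reads. Their median was 1 sorted read at 6 to 10 unsorted reads and 2 at 11 to 30.

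The mapping behind these counts allowed 3 mismatches and kept only reads with a single valid alignment. In the unsorted library, 590 sgRNAs with a neighbour 1 mismatch away had a median of 3 reads, 536 with a neighbour at 2 mismatches had 5, and 1144 with a neighbour at 3 mismatches had 9. At 4 mismatches the median of 7839 sgRNAs was 105, and at 5, 6 and 7 mismatches it was 107, 108 and 113. The step thus fell between 3 and 4 mismatches, and the part of the mapping in it was not tested. Members made up 0.793% of the 2270 sgRNAs within 3 mismatches and 0.294% of the 72066 others. Beside sgRNAs of similar unsorted count the direction was the reverse. A neighbour within 3 mismatches was present for 58.8% of sgRNAs with 1 to 5 unsorted reads and for 7.83% of members.

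The near-identical members lay mostly in gene families. The RAP2B sgRNA, against a Ras-like GTPase, differed from the RAP2A sgRNA by C20G, counted from 1 at the 5′ end with the member's base first. It had 1 sorted read, and its neighbour had 5 unsorted reads and 1 sorted read. The SSX3 sgRNA, against a cancer-testis antigen, differed from that of SSX7 by A11C and also had 1 sorted read against 5 unsorted and 1 sorted in the neighbour. Both pairs were therefore low in both libraries. The olfactory receptor sgRNAs OR8B3 (T13G to OR8H3) and OR5K2 (A3G, T6C and T9G to OR5K4) had 2 and 3 sorted reads.

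The placental hormone gene CSHL1 (G8A and A17C to CSH1) and the histone gene HIST1H2BM (A5T and G8A to HIST1H2BD) had 1 sorted read each. The protocadherin PCDHGA6 (C17A and C19G to PCDHGA4) had 2. RPL9, a ribosomal protein, differed from the other pairs printed above in that its neighbour belonged to an unrelated gene, the DNA sensor AIM2 (A12T, G14A and T15C), with 27 unsorted and 2 sorted reads. Over the 18 pairs the neighbours had between 1 and 27 unsorted reads with a median of 5, and 6 of the 18 neighbours had sorted reads, at most 2. In 1 pair, AMBN, which encodes an enamel protein, the neighbour targeted the same gene (A9G).

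The sgRNAs just outside the rule included some with sorted counts as high as those of the leading members, but their median was lower. The labels state about 76441 sgRNAs in the pool, of which 2105 had no counted read in either library, so that roughly 230 of 2335 sgRNAs with 0 unsorted reads (9.85%) had sorted reads, a share that rests on this approximate pool size. Of 545 sgRNAs with exactly 1 unsorted read, 52 (9.54%, 95% Wilson interval 7.35 to 12.3%) had sorted reads. Those with the most were sgRNAs of PPP2R3A with 147 sorted reads, FAM118B with 125, PEX16 with 108, TSGA10IP with 99 and SHISA2 with 95, which overlaps the counts of the leading members. The median of the 52 was 3.5 sorted reads and 26 of them had more than 3, against a median of 30.5 and 198 of 230 for the members. A neighbour within 3 mismatches was present for 24 of the 52 and for 18 of the 230.

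Away from near-identical sgRNAs, the sorted level of sgRNAs that were present after sorting varied little across classes of unsorted count, with medians from 22 to 47 reads, while the share of sgRNAs present rose from class to class with 1 exception. The 212 members without a neighbour within 3 mismatches had a median of 33 sorted reads with quartiles of 18 and 49. For sgRNAs with 1 unsorted read and no such neighbour, 28 of 246 (11.4%, Wilson 7.99 to 16.0%) had sorted reads, at a median of 37. With 6 to 10 unsorted reads, 20.9% had sorted reads at a median of 33, and with 31 to 100 unsorted reads 34.7% at a median of 37. Above 300 unsorted reads, 64.4% had sorted reads at a median of 47. The median of the members thus lay within the range of the other classes. Their share present was 100% by the rule and cannot be set beside the other shares. This is a description of counts that share the same 2 libraries.

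Some first bases and GC-rich sequences had other shares among the members than in the pool, and other sgRNAs with few unsorted reads shared this in part. The first base was A in 31 of 230 members (13.5%, Wilson 9.66 to 18.5%), against 25.7% of all listed sgRNAs and 29.4% of those with reads in both libraries. Among sgRNAs with 1 to 5 unsorted reads it was A in 18.5%, and in 14.7% of those without a neighbour within 3 mismatches, where the members without one had 13.2%. A first base of G was found in 37.0% of members, 28.8% of all listed sgRNAs and 30.8% of those with 1 to 5 unsorted reads, and T in 30.4%, 22.0% and 23.6%. A first base of C was less frequent in members (19.1%) than in all listed sgRNAs (23.5%), and more frequent in those with 1 to 5 unsorted reads (27.1%). Of the 12 leading members printed above, only the EXOSC10 sgRNA started with A. A GC content of at least 70% was found in 27 members (11.7%, Wilson 8.19 to 16.5%), in 6.81% of all listed sgRNAs and in 8.74% of those with 1 to 5 unsorted reads. Without a neighbour within 3 mismatches it was found in 11.3% of the members and of the sgRNAs with 1 to 5 unsorted reads alike. At a GC content of at most 30% the shares were 3.48% of members and 3.61% of all, and the median was 50% in both.

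The genes hit by members included several that dividing cells depend on. Over all listed sgRNAs, 0.309% were members. Of the 271 sgRNAs against cytosolic ribosomal proteins, the building blocks of the ribosome, 7 (2.58%, Wilson 1.26 to 5.23%) were members. These included RPL23 with 54 sorted reads, RPL27 with 12, RPS12 with 8, RPL9 with 3 and RPS15 with 2. The median unsorted count of this list was 41 reads, against 103 for all listed sgRNAs, so the list as a whole was low before sorting. Proteasome genes had 3 members among 133 sgRNAs (2.26%, Wilson 0.770 to 6.42%), all in subunits of the regulatory particle, with 32 sorted reads for PSMD6, 29 for PSMD12 and 27 for PSMD1. Their list had a median of 58 unsorted reads.

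Genes of ribosome assembly and RNase MRP, a list added after the members were seen, had 9 members among 463 sgRNAs (1.94%, Wilson 1.03 to 3.65%). Because the list was made with its members known, its share and interval cannot show an excess over all listed sgRNAs. Its sgRNAs were also scarce before sorting (median 53 reads, beside 103 over the whole table of sgRNAs). After LTV1 came ISG20L2, an exonuclease of ribosomal RNA processing, with 64 sorted reads, NOC3L with 48 and WDR12 with 41. RRP15, RRP36, BYSL and the RNase MRP subunit RPP40 had 38, 31, 30 and 28, and the ribosomal RNA methyltransferase NOP2 had 6. The RNA exosome, also added, had 2 members among 51 sgRNAs. Both were in EXOSC10, the only gene with more than 1 member, and their 72 and 4 sorted reads were far apart.

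The DNA replication and kinetochore list had 2 members among 283 sgRNAs. These were POLA1 (DNA polymerase α) with 63 sorted reads and the clamp loader subunit RFC3 with 27. RNA polymerase and Mediator genes had 2 among 345, including GTF3C6, a subunit of a general factor of RNA polymerase III, with 28. The SF3 and splicing list had 2 among 343 (0.583%), SF3B1, the branch point recognition factor that is a core subunit of the SF3b complex, with 23 sorted reads and RBM22, a component of the activated spliceosome, with 15. No member was on the lists of mitochondrial ribosomal proteins (0 of 302 sgRNAs) or of translation factors and tRNA synthetases (0 of 352). The lists of chaperonin and heat shock genes (0 of 337) and of the respiratory chain (0 of 410) held none either. Over these 9 lists of genes that growing cells rely on, from ribosomal proteins to the respiratory chain, 16 of 2776 sgRNAs were members (0.576%, Wilson 0.355 to 0.934%), which is 6.96% of members against 3.73% of all listed sgRNAs. Most members were thus in genes outside these lists. Cytosolic ribosomal proteins gave 7 of the 16 and the proteasome 3, while several of the lists held none. The pooled share therefore does not describe growth genes in general. Starting levels on the pooled lists were low too (median 76 reads before sorting, 103 over all listed sgRNAs).

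The lists closest to the aim of the screen were too small to show a share of members apart from the 0.309% of all listed sgRNAs. There were 0 members among 7 sgRNAs of the fusion partners EWSR1 and FLI1, 0 of 111 for Hedgehog signaling, 0 of 284 for O-glycan synthesis and 0 over 27 target genes of EWSR1::FLI1. A list of 25 genes, made of factors named in the study and of genes leading its table of enriched sgRNAs, had 1 member among 100 sgRNAs (1.00%, Wilson 0.177 to 5.45%), in GPR137, a lysosomal membrane protein, with 47 sorted reads. Genes came onto that list through their counts in these libraries, those of the GPR137 member included, so it is not independent. SF3B1, also named in the study, is counted under splicing above. The 3 other sgRNAs of GPR137 had 232 unsorted and 52 sorted reads, 157 and 57, and 81 and 35, with odds ratios of 1.61 (95% interval 1.17 to 2.19), 2.62 (1.90 to 3.56) and 3.11 (2.03 to 4.68). All 4 sgRNAs of GPR137 were thus present after sorting, and 2 of the 3 others were enriched (Fisher's exact test, adjusted p = 3.6e-08 and 5.83e-07).

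Large gene families outside growth control held members at shares on both sides of 0.309%. Olfactory receptors had 3 among 1457 sgRNAs (0.206%), OR5L1 with 64 sorted reads besides OR5K2 and OR8B3. The list of other G protein-coupled receptors had 4 among 1048 (0.382%), including the prostaglandin receptor PTGER4 with 33 and the bitter taste receptor TAS2R9 with 27. The lysosomal membrane protein GPR137 was also on this list. Zinc finger factors had 8 among 2325 (0.344%), led by ZNF575 and ZNF710 with 61 each, ZBTB9 with 46 and ZNF417 with 35. Solute carriers had 1 among 1522 (0.0657%), the sodium-calcium exchanger SLC8A2 with 28. The ion channel list had 0 of 918, but a member against a sperm calcium channel fell outside that list. The family lists were made from gene symbols or symbol patterns. Members of a family can therefore fall outside its list, and a list can hold genes that are not of the family.

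By symbol, the list of immune receptors and cytokines held 5 members among 1389 sgRNAs, including IL18R1 with 48 sorted reads, TNFAIP8L2 with 46, CD101 with 37 and CLEC18C with 22. The list of ubiquitin ligases and deubiquitinases, also made by symbol, held 5 among 1620, including TRIM46 with 57, TRIM9 with 49, UBE2Q2L with 8 and RNF39 with 1. Cytoskeletal genes had 4 among 817, the γ-tubulin complex protein TUBGCP2 with 53, the motor MYO5A with 39 and the tubulins TUBA1B with 38 and TUBB4B with 3. Keratins and associated proteins had KRT75 and KRTAP2-4 (64) among 561 sgRNAs, kinases had CAMK4 (40) and TSSK6 (23) among 946, and cilium genes had 2 among 1223, CCDC181 (55) and WDR12, which the list held through the WDR name pattern although it acts in ribosome assembly. The list of homeobox, forkhead and SOX factors had HOXA4 (46) and DLX4 (3) among 717, and another homeobox gene with a member fell outside it. BAF and chromatin genes, histones and adhesion molecules had 1 each, in SMARCD2 (27) among 377, HIST1H2BM among 302 and PCDHGA6 among 1280. Read-through genes, added later, had 4 among 274, BCL2L2-PABPN1 with 27, LY75-CD302 with 23, PPAN-P2RY11 with 3 and RBAK-RBAKDN with 1.

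The other sgRNAs of the same genes were not used by the rule and allow a test. Calls required an adjusted p under 0.05 in Fisher's exact test over all 74336 sgRNAs, together with an odds ratio of 2 or more for enriched sgRNAs and of 0.5 or less for depleted ones. The 229 genes had 662 other listed sgRNAs. Of these, 131 (19.8%, Wilson 16.9 to 22.99%) were enriched, beside 20.8% of all listed sgRNAs, and 325 (49.1%, Wilson 45.3 to 52.9%) were depleted, beside 51.7%. Reads after sorting were found for 239 (36.1%, Wilson 32.5 to 39.8%), beside 42.4% of all. Both shares of calls were thus near the background, whose value lay within the Wilson interval.

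The other sgRNAs were themselves somewhat low before sorting, at a median of 77 unsorted reads (quartiles 34 and 151) against 103 for all listed sgRNAs. Among genes without a member, weighted to the same spread of unsorted counts, 38.1% of sgRNAs had sorted reads, 21.1% were enriched and 47.2% depleted. By gene, 114 of 229 had no enriched other sgRNA, 99 had 1, 16 had 2 and none had 3. In 62 genes no other sgRNA had any sorted read, and in 10 genes 3 others had.

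The genes of the leading members showed how far sgRNAs of 1 gene differed. For DGKA, an sgRNA with 47 unsorted and 41 sorted reads was enriched with an odds ratio of 6.28 (4.03 to 9.76 at 95%, Fisher's exact test with adjusted p = 1.21e-14), whereas those with 126 and 131 unsorted reads had 3 and 0 sorted reads and were depleted. LY6G6D had 2 enriched others, with 20 unsorted and 72 sorted reads (odds ratio 25.9, 15.6 to 44.9) and with 50 and 36 (5.19, 3.28 to 8.12), and 1 depleted with 35 and 0. LY6G6D was the only gene of the 15 with 2 enriched others. A count of 0 sorted reads allows up to 3, the share of 21.6 unsorted reads, so an sgRNA with 35 unsorted reads at 0 was only a little beyond what the sorted depth can show.

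POLK and KRT75 gave the opposite picture to LY6G6D. The 3 other sgRNAs of POLK had 121, 70 and 51 unsorted reads and 0 sorted reads each, and those of KRT75 had 110, 166 and 139 and also 0 each, all depleted (largest adjusted p = 0.00327, Fisher's exact test). In 4 of the 15 genes, POLK and KRT75 among them, the member was the only listed sgRNA with reads after sorting. Across the 15 genes, 17 of 43 other sgRNAs (39.5%) had sorted reads, 11 (25.6%) were enriched and 23 (53.5%) depleted, beside 42.4%, 20.8% and 51.7% of all listed sgRNAs, and 10 genes had an enriched other.

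SPTBN4 had 1 enriched other sgRNA, with 36 unsorted and 127 sorted reads (odds ratio 25.4, 17.4 to 37.9), and ADA 1 with 60 and 131 (15.7, 11.5 to 21.7). In SPTBN4 and ADA, sgRNAs with a measured starting level thus reached higher sorted counts than the member. For EXOSC10 the 2 other sgRNAs had 52 unsorted and 5 sorted reads and 39 and 28, the latter enriched with an odds ratio of 5.17 (3.06 to 8.62). LTV1 had 9, 10 and 147 unsorted reads in its other sgRNAs and 0, 0 and 1 sorted reads.

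The ribosomal genes with members were low in many of their other sgRNAs too, at 2 to 391 unsorted reads with a median of 27 over 18 sgRNAs. RPL27 had 1 enriched other sgRNA with 12 unsorted and 44 sorted reads (odds ratio 26.4, 13.7 to 54.9), and RPL9 1 with 35 and 37 (7.62, 4.67 to 12.5). Of the 18 others, 3 (16.7%) were enriched and 3 (16.7%) depleted, beside 20.8% and 51.7% of all listed sgRNAs, and 8 of the 18 had no more than 21.6 unsorted reads, too few for a count of 0 after sorting to lie beyond its floor. The 8 others of the 3 proteasome genes included 0 enriched and 6 depleted, and 1 of the 8 had sorted reads. Sorted reads were found for 28.6% of the whole proteasome list and 42.4% of all listed sgRNAs. The 8 others had a median of 63.5 unsorted reads, also lower than the 103 of all listed sgRNAs.

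SF3B1 had others with 68 unsorted and 0 sorted reads, 84 and 42 (odds ratio 3.60, 2.43 to 5.28, enriched), and 58 and 9. For RBM22 they had 86 and 89 (7.45, 5.48 to 10.1, enriched), 17 and 0, and 368 and 0. Both splicing genes thus had 1 enriched other sgRNA besides the member and at least 1 that was not seen after sorting. In the ribosome assembly list, 6 of 25 other sgRNAs (24.0%) were enriched and 12 (48.0%) depleted. Both shares were near the 20.8% and 51.7% of all listed sgRNAs. RRP15 had 2 enriched others, with 61 unsorted and 18 sorted reads (2.13, 1.18 to 3.64) and with 98 and 54 (3.97, 2.79 to 5.59).

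Besides LY6G6D, GPR137 and RRP15, the genes with 2 enriched others included B4GALNT2, BRI3, C17orf74 (SPEM2), IGFN1, LY75-CD302, PDF, RAP2B, RNF39, SLC8A2, UBE2Q2L and ZNF710. They were named after their values were seen. Of all listed sgRNAs 20.8% were enriched, and genes without a member were not searched for 2 enriched sgRNAs. BRI3, a lysosome-associated membrane protein, had a member with 69 sorted reads and others with 122 unsorted and 65 sorted reads (odds ratio 3.84, 2.80 to 5.23), 10 and 31 (22.3, 10.7 to 51.1) and 143 and 1. B4GALNT2, the glycosyltransferase of the Sda blood group antigen, had a member with 66 and others with 173 and 72 (3.00, 2.24 to 3.97), 44 and 34 (5.57, 3.45 to 8.91) and 188 and 0. In BRI3 and B4GALNT2 the sgRNA that was not enriched was at 0 or 1 sorted read, so their sgRNAs were either well represented or almost absent after sorting. RAP2B differed in that its member was the near-identical sgRNA with 1 read, while 2 of its others were enriched, with 161 and 93 (4.16, 3.19 to 5.40) and 172 and 61 (2.55, 1.88 to 3.44).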

How the data were processed

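Guide cassettes were amplified from genomic DNA of 1 unsorted and 1 sorted A673 reporter population and sequenced on a MiSeq. Per the labels and the methods, the authors took the guide from each read, mapped it to the Brunello sequences with Bowtie 1.2.2, allowing 3 mismatches and a single valid alignment, and deposited raw read counts of every sgRNA beside each library's total. The table also holds the authors' odds ratios and p-values, which were not used. A genome build is not given in the sources used here, so positions are left out.

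Of 74339 rows, 3 repeated entries were dropped. Symbols came from the symbol stored with each guide, and 225 of the 229 member genes matched RefSeq GRCh38.p14 by accession, 11 of them under another current symbol. Fisher's exact test (two-sided) was run on the counts and library totals of all sgRNAs with Benjamini-Hochberg adjustment, and no test was run on the members, whose counts chose them. Odds ratios have exact 95% intervals from the share of sorted reads. For a count of 0, bounds use a floor of 3 reads. Nearest sgRNAs were found by comparing all listed sgRNAs on both strands, so neighbours among sgRNAs without reads were not searched. The code of the test and of the neighbour search was checked on simulated data. The simulated counts held counting error and planted changes only, so they do not cover spread added by sorting and regrowth. With 1 library a group, the precision is that of the counts.

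The members and the gene lists were chosen with earlier results of these data known. Lists were made from gene symbols or symbol patterns, so a list can miss genes of its family or hold genes outside it. Named genes were the 15 members with the most and the 5 with the fewest sorted reads, genes with 2 or more members, members of the lists tied to the screen and to splicing, genes with 3 or more other sgRNAs enriched, and up to 4 members of each other list. The lists for ribosome assembly and RNase MRP, the RNA exosome and read-through genes were added after the members were seen. Some genes and sequences, members among the named genes included, are not reported here. Alternatives covered the cut on reads, the calling rule, the totals and near-identical sgRNAs. Scripts used Python 3.11.15, numpy 2.4.6, pandas 2.3.3, scipy 1.17.1 and numba 0.67.0.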

Additional observations from a re-analysis of the deposited data

How the results depend on the processing

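Of 28 alternatives to the reported values, 23 stayed within the counting interval, the quartiles or 1.5 times the count, and 5 moved. The number of members fell from 230 to 119 when at least 30 sorted reads were required, and thinning the unsorted library to the sorted total would be expected to give 606, since an sgRNA is missed more often at lower depth. Cuts at 2, 4 and 10 sorted reads left 211, 198 and 175. The median sorted count of 30.5 became 3.5 for sgRNAs with 1 unsorted read and 1.5 for those with 2. Of these sgRNAs, 24 of 52 and 33 of 50 had a neighbour within 3 mismatches, against 18 of 230 members. The share of other sgRNAs with sorted reads rose from 36.1% to 40.7% with at least 30 unsorted reads, against 45.5% of all sgRNAs at that minimum. The share of other sgRNAs called enriched ran from 17.4% under Bonferroni adjustment (17.0% of all sgRNAs) to 22.7% at an odds ratio above 1 (25.5% of all). The share of members in growth genes was 6.96%, and 7.08% without near-identical members, an alternative chosen after seeing the data. No paired analysis was possible because each group had 1 library, and for the same reason no replicate could be left out. The sorted depth cannot show a loss for an sgRNA with about 21.6 or fewer unsorted reads.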
